A study of Mus musculus with 24 samples.

Results

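Pax5, Pou2af1 and Spib, transcription regulators of the B cell lineage, were followed as 3 of the 38321 gene IDs counted in 24 poly(A) RNA-seq libraries of mouse gingiva and dentoalveolar complex (DAC). They were found by their Ensembl IDs and mouse symbols. The 3 genes were chosen with earlier results of these data known, so counts of calls and ranks among them are descriptive and test no enrichment. The mice were female wild-type C57BL/6J, 11 weeks old at the start, and all of them carried a silk ligature at the maxillary second molars from day 7 that induces periodontitis. The OVXE2 mice were ovariectomized on day 0 and were given estradiol benzoate, 1 µg per day under the skin in corn oil, from day 4. The OVX mice were ovariectomized and received the vehicle, and the Sham mice had sham surgery and the vehicle. Tissue was collected on day 14, and each group gave 4 libraries per tissue. The gingiva was taken around the molars, and the DAC is the alveolar bone with its teeth after soft tissue had been cleaned off. By the labels these 4 are biological replicates, and nothing is said of whether a mouse gave both tissues or whether mice were pooled.

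Pax5 is a paired-box transcription factor that commits lymphoid precursors to the B cell lineage and holds them there. Pou2af1 (also OBF-1 or OCA-B) is a coactivator that binds the POU factors Oct-1 and Oct-2 on octamer DNA and is needed for germinal centres. Spib is an ETS-family factor related to PU.1 (Spi1) that acts in B cells, in plasmacytoid dendritic cells and in the microfold cells of mucosal epithelium. B cells are made in bone marrow, which alveolar bone contains, and estrogen is known to lower the number of B cell precursors in the marrow of mice.

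On GRCm38 with the GENCODE M21 annotation, Pax5 (ENSMUSG00000014030) lies on the minus strand at chr4:44524757-44710487, Pou2af1 (ENSMUSG00000032053) on the plus strand at chr9:51213708-51240080 and Spib (ENSMUSG00000008193) on the minus strand at chr7:44525993-44532071. All are protein-coding, with 8853, 2549 and 2868 bases of exon. The genes that overlap Pax5 or Pou2af1 held at most 15 counts over all 24 libraries. No gene overlaps Spib, but Pold1 and Mybpc2 lie within 2000 bases of it on the same strand. They held 14125 and 15985 counts over all libraries, and whether they bear on the Spib counts was not tested.

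The 250 bases before each RefSeq transcription start (build GRCm38.p6) are shown, 5′ to 3′ on the gene's own strand. Capitals mark the octamer core TGCAAAT, the motif family on which Pou2af1 acts. Whether any motif match bears on the values of the 3 genes was not tested.
Pax5, chr4:44710695-44710944, minus strand: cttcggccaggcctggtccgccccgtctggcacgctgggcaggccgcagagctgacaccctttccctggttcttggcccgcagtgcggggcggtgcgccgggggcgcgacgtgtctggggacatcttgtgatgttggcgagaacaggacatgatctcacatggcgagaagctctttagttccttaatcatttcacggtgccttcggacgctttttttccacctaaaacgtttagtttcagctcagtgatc
Pou2af1, chr9:51213440-51213689, plus strand: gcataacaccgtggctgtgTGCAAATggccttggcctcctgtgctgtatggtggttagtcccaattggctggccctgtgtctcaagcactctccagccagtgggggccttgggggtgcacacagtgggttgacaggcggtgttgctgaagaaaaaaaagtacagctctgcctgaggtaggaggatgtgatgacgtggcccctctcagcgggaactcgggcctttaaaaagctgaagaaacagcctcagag
Spib, chr7:44532072-44532321, minus strand: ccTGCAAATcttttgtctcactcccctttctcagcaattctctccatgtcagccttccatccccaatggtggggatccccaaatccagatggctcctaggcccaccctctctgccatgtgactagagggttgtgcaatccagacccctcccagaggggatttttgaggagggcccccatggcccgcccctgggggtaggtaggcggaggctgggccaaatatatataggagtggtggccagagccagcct
The octamer core, searched on both strands, occurred 1 time in the Pou2af1 window, 224 bases before the start, and 1 time in the Spib window, 241 bases before it. It had no match in the Pax5 window. Of 32817 windows of the same length, 3.57% held it. The ETS core GGAA, found in 93.4% of the windows, had 3 matches before Pax5, 1 before Pou2af1 and 1 before Spib. The CRE core TGACG, present in 17.7% of windows, lay 56 bases before the Pou2af1 start and had no match before Pax5 or Spib. The literal TATAA, in 22.8% of windows, matched none of them. Looser TATA forms were not searched, and the Spib window holds TATATATA near its end. The Pax5 start of RefSeq lies 207 bases upstream of that of GENCODE, so for this gene the window depends on the annotation.

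The total gene count per library was 14771830 to 29248358 in the DAC and 18598422 to 26001342 in gingiva, and no library repeated another of its group. Markers of osteoblasts, osteocytes and odontoblasts summed to 64400 to 86900 counts per 1000000 (CPM) in the DAC and to 2000 to 5770 CPM in gingiva, and keratinocyte markers to 1100 to 10700 CPM in the DAC and 101000 to 142000 CPM in gingiva, as the tissue labels say. Library OVX 1 of the DAC stood apart, with 13.5% of its counts on nasal gland genes against 0.244 to 1.96% in the other DAC libraries. Brain neuron genes took 0.00515 to 0.0505% of DAC counts, most in Sham 2. The tests of Pax5, Pou2af1 and Spib and the count of other B lineage regulators were also run without OVX 1 and without the 4 DAC libraries of highest brain neuron share; the ratios, likeness and other list counts below were not.

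In the DAC, all 3 genes were several-fold lower in OVXE2 than in OVX mice. Pax5 had 2.49, 4.32, 1.84 and 4.14 CPM in the OVXE2 libraries, against 32.1, 20.8, 25.9 and 22.6 CPM in the OVX libraries. Every OVXE2 value lay under every OVX value, which was so for 3.51% of all genes tested. Its log2 fold change was −2.98 ± 0.29 (SE; 7.89-fold lower; adjusted p = 0.000289, edgeR's quasi-likelihood test with Benjamini-Hochberg adjustment over 13617 genes, as for all tests of genes below). Pou2af1 had 3.72, 5.70, 3.91 and 5.44 CPM in OVXE2 and 32.9, 30.5, 32.8 and 33.3 CPM in OVX libraries. The OVX libraries were close to one another, with a coefficient of variation of 3.95%, and far above all OVXE2 libraries. Pou2af1 had the smallest p-value of all 13617 genes in this comparison (log2 fold change −2.78 ± 0.16, 6.88-fold lower, adjusted p = 1.06e-05). Spib had 5.76, 8.86, 6.30 and 10.5 CPM in OVXE2 and 50.3, 40.5, 46.1 and 44.9 CPM in OVX libraries, again without overlap. It fell by 2.53 ± 0.19 on the log2 scale (5.77-fold, adjusted p = 6.04e-05) and ranked 8 by p-value, with Pax5 at rank 20. Thus 3 of 3 genes were called, while 2.13% of all genes were called in this comparison and 1.45% fell. Without OVX 1, the library rich in nasal gland counts, the log2 fold changes were −2.85 for Pax5, −2.77 for Pou2af1 and −2.48 for Spib, and without the 4 libraries of highest brain neuron share (OVXE2 2, OVX 1, Sham 2 and Sham 4) they were −3.02, −2.88 and −2.54, all still past the test. In these bulk libraries fewer B lineage cells and less of each mRNA per cell cannot be told apart.

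**Figure D1:**
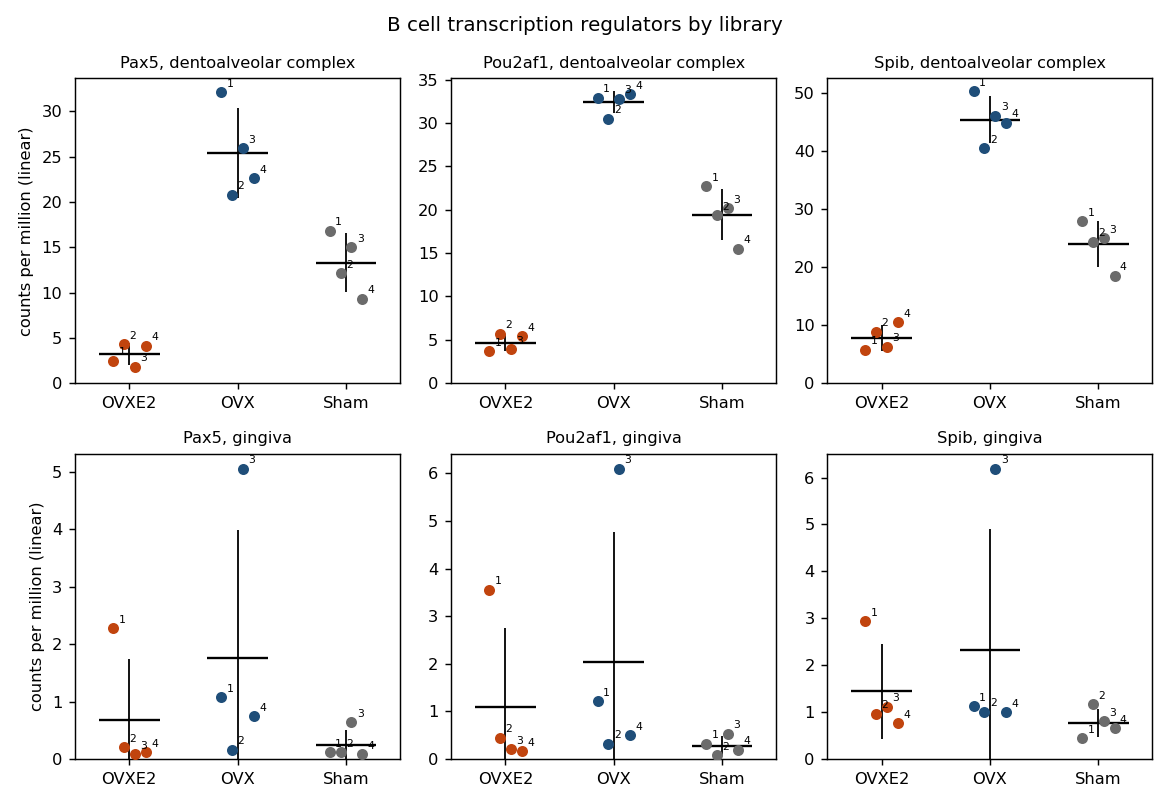
TMM-scaled CPM (linear axis, from 0) of Pax5, Pou2af1 and Spib in each library, with the DAC in the upper row, gingiva in the lower row and the groups OVXE2, OVX and Sham from left to right. Points are libraries with their replicate numbers, horizontal bars are means and vertical bars are ± 1 SD (n = 4), drawn no lower than 0. The OVXE2, OVX and Sham libraries of the DAC do not overlap for any of the 3 genes, while in gingiva OVX 3 and OVXE2 1 lie above the rest.

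The genes were also lower in OVXE2 than in Sham mice. The Sham libraries had 16.8, 12.1, 15 and 9.34 CPM of Pax5, 22.7, 19.4, 20.2 and 15.5 CPM of Pou2af1, and 27.9, 24.4, 25.0 and 18.5 CPM of Spib. Pax5 averaged 3.20 ± 1.22 CPM in OVXE2 and 13.3 ± 3.30 CPM in Sham libraries (SD, n = 4 each). Pou2af1 averaged 4.69 ± 1.02 CPM in OVXE2 and 19.4 ± 2.97 CPM in Sham, and Spib 7.86 ± 2.23 CPM in OVXE2 and 24 ± 3.93 CPM in Sham. No OVXE2 value reached the lowest Sham value of its gene, which was so for 2.78% of genes. All 3 fell, where 1.05% of 13617 genes were called and 0.661% fell. The log2 fold changes were −2.05 ± 0.28 for Pax5 (adjusted p = 0.00635), −2.05 ± 0.16 for Pou2af1 (adjusted p = 0.000158) and −1.61 ± 0.19 for Spib (adjusted p = 0.0021). Among libraries of higher other-strand share alone, which leaves 3, 2 and 3 libraries in OVXE2, OVX and Sham, Pax5 was lower by a log2 fold change of −2.34 with an adjusted p of 0.0529.

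Ovariectomy alone went with higher values that did not pass the test over all genes. Pax5 averaged 25.3 ± 4.97 CPM in OVX and 13.3 ± 3.30 CPM in Sham libraries, with 20.8 CPM the lowest OVX value and 16.8 CPM the highest Sham value. Pou2af1 averaged 32.4 ± 1.28 CPM in OVX and 19.4 ± 2.97 CPM in Sham, and Spib averaged 45.4 ± 4.07 CPM in OVX and 24 ± 3.93 CPM in Sham. The 4 OVX values lay above the 4 Sham values for each gene, as they did for 1.66% of all genes tested. The log2 differences were 0.93 ± 0.27 for Pax5, 0.73 ± 0.15 for Pou2af1 and 0.92 ± 0.18 for Spib, each with an adjusted p of 0.874 in edgeR. By p-value Spib ranked 4, Pou2af1 5 and Pax5 38 of 13617 genes. No gene (0.0%) passed in edgeR, where 437 had an unadjusted p under 0.05. DESeq2 called 10 genes, among them Pou2af1 at 0.74 and Spib at 0.92 (adjusted p = 0.0044 for both), and not Pax5 (adjusted p = 0.274). Without the 4 DAC libraries of highest brain neuron share, which left 3, 3 and 2 libraries in OVXE2, OVX and Sham, the Pax5 difference between OVX and Sham was 0.54 on the log2 scale.

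**Figure D2:**
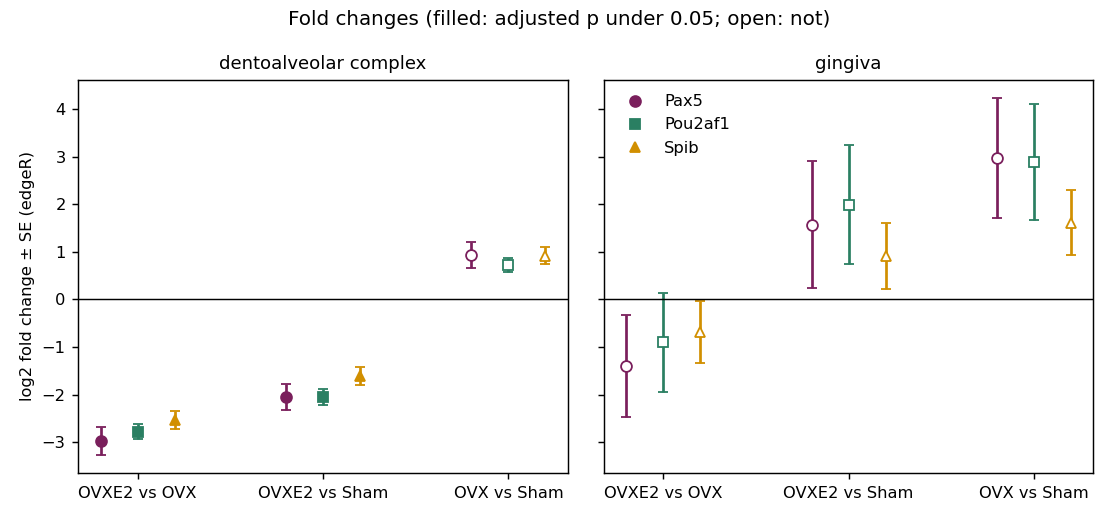
Log2 fold changes (vertical axis) with their standard errors from edgeR for Pax5 (circles), Pou2af1 (squares) and Spib (triangles) in the comparisons OVXE2 vs OVX, OVXE2 vs Sham and OVX vs Sham, for the DAC on the left and gingiva on the right. Filled symbols have an adjusted p under 0.05: these are the 6 values of the OVXE2 comparisons in the DAC, from −2.98 to −1.61, while the gingival values have standard errors of 0.65 to 1.33.

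Levels of different genes were compared per kilobase of exon. In the DAC, Spib was the highest, Pou2af1 next and Pax5 the lowest in each group. In OVXE2 libraries Spib had 2.74 ± 0.778, Pou2af1 1.84 ± 0.399 and Pax5 0.361 ± 0.138 CPM per kb. In OVX libraries the levels were 15.8 ± 1.42 for Spib, 12.7 ± 0.501 for Pou2af1 and 2.86 ± 0.562 CPM per kb for Pax5, and in Sham libraries 8.36 ± 1.37, 7.63 ± 1.17 and 1.50 ± 0.373 CPM per kb in the same gene order. In Sham libraries the mean levels of Spib and Pou2af1 differed by less than their SDs between libraries. Within each Sham library Spib was the higher, at 1.06 to 1.12 times Pou2af1.

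Within a library, the ratio of 2 of the genes does not depend on depth or scaling. The mean log2 ratio per kilobase of Spib over Pou2af1 was 0.56 ± 0.15 in OVXE2 and 0.32 ± 0.09 in OVX libraries of the DAC (SD, n = 4 each). It was 0.13 ± 0.03 in Sham libraries, and no library of one group fell within the range of another. Spib over Pax5 was 2.97 ± 0.31 in OVXE2 and 2.48 ± 0.16 in OVX, without overlap, and 2.5 ± 0.16 in Sham. Pou2af1 over Pax5 overlapped between all groups, at 2.41 ± 0.33 in OVXE2, 2.17 ± 0.25 in OVX and 2.37 ± 0.16 in Sham. In two-sided exact permutation tests, the 5 comparisons without overlap had p = 0.0286 each, the smallest that 70 relabellings of 4 against 4 libraries can give. Adjusted over the 9 ratio tests this was 0.0514, which misses 0.05.

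**Figure D3:**
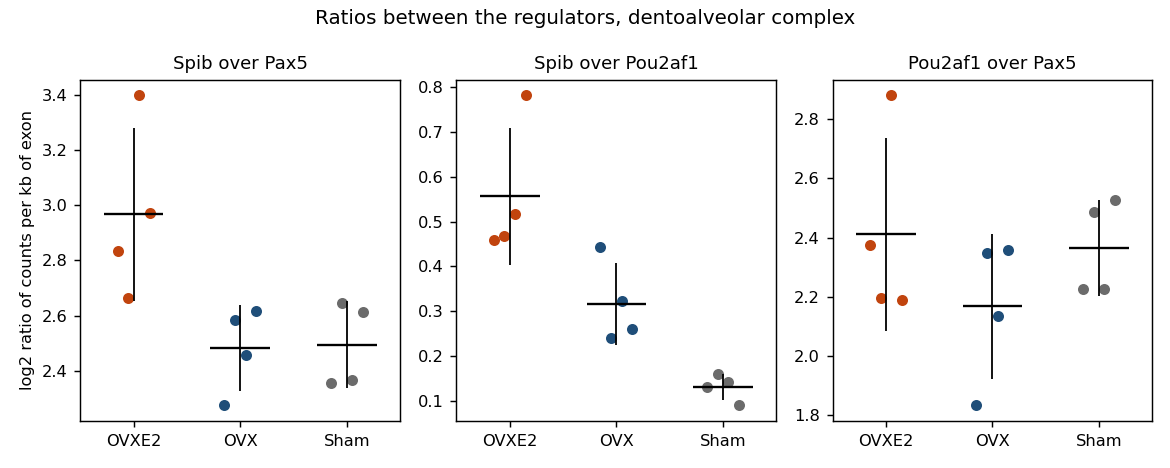
Log2 ratios of counts per kilobase of exon between 2 genes within each DAC library (vertical axes, which do not start at 0 and differ between panels), for OVXE2, OVX and Sham. Points are libraries, and bars are the mean and ± 1 SD (n = 4). Spib over Pou2af1 has means of 0.56, 0.32 and 0.13 without overlap between groups, and Pou2af1 over Pax5 overlaps in all of them.

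Over all 12 DAC libraries the genes whose centred log2 CPM ran closest to those of the regulators were mostly B lineage genes and the regulators themselves. The distance was the root mean square difference, given with no test, and groups and depth are shared by all genes in it. For Pax5 the nearest of 13616 genes were Siglecg, an inhibitory receptor of B cells, at 0.208, Pou2af1 at 0.237, Spib at 0.284, and Fcrla and Cecr2 at 0.332 each, where the median gene was at 1.35. For Pou2af1 the nearest were Spib at 0.193, Fcrla, an intracellular Fc receptor-like protein of B cells, at 0.194, Pax5, Siglecg, and the B cell receptor component Cd79a at 0.261. For Spib they were Pou2af1, Myb at 0.233, Siglecg, Fcrla and Cecr2.

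Other transcription regulators of the B lineage did not all follow. Of 35 listed symbols 24 were counted and tested. In OVXE2 against OVX libraries of the DAC 0 rose, 6 fell and 18 did not pass, with a median log2 fold change of −0.19 against 0.02 over all genes. Those that fell were Myb, a factor of haematopoietic progenitors, which had 8.77 ± 2.70 CPM in OVXE2 and 40.2 ± 3.92 CPM in OVX libraries (−2.19 ± 0.24, adjusted p = 0.000666), Ikzf3, or Aiolos, (−2.07 ± 0.42, adjusted p = 0.0246), Bach2, a repressor that opposes plasma cell fate, (−1.40 ± 0.25, adjusted p = 0.0139), the lymphoid factor Ikzf1, or Ikaros, (−1.37 ± 0.19, adjusted p = 0.00271), Irf8 (−0.81 ± 0.14, adjusted p = 0.0108) and Lef1 (−0.75 ± 0.14, adjusted p = 0.0144). The log2 fold change of each was closer to 0 than those of Pax5, Pou2af1 and Spib, a difference that was not tested. Without OVX 1 of the DAC 5 of the 24 fell, and without the 4 DAC libraries of highest brain neuron share 3 did. Ebf1, which acts with Pax5 in early B cells, had 33.2 ± 4.51 CPM in OVXE2 and 42.5 ± 2.11 CPM in OVX libraries (−0.36 ± 0.12, adjusted p = 0.254). Pou2f2, or Oct-2, a partner of Pou2af1, had 6.04 ± 0.529 CPM in OVXE2 and 10.3 ± 2.79 CPM in OVX (−0.77 ± 0.22, adjusted p = 0.128). Spi1, the relative of Spib that myeloid cells also use, was at −0.14 ± 0.15 and Prdm1, a factor of plasma cells, at 0.23 ± 0.12, neither past the test. Bcl11a was at −0.28 ± 0.10 (adjusted p = 0.232). Between OVXE2 and Sham 1 of the 24 fell, Myb (−1.58 ± 0.24, adjusted p = 0.00921). Between OVX and Sham none passed, where 0.0% of all genes were called.

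**Figure D4:**
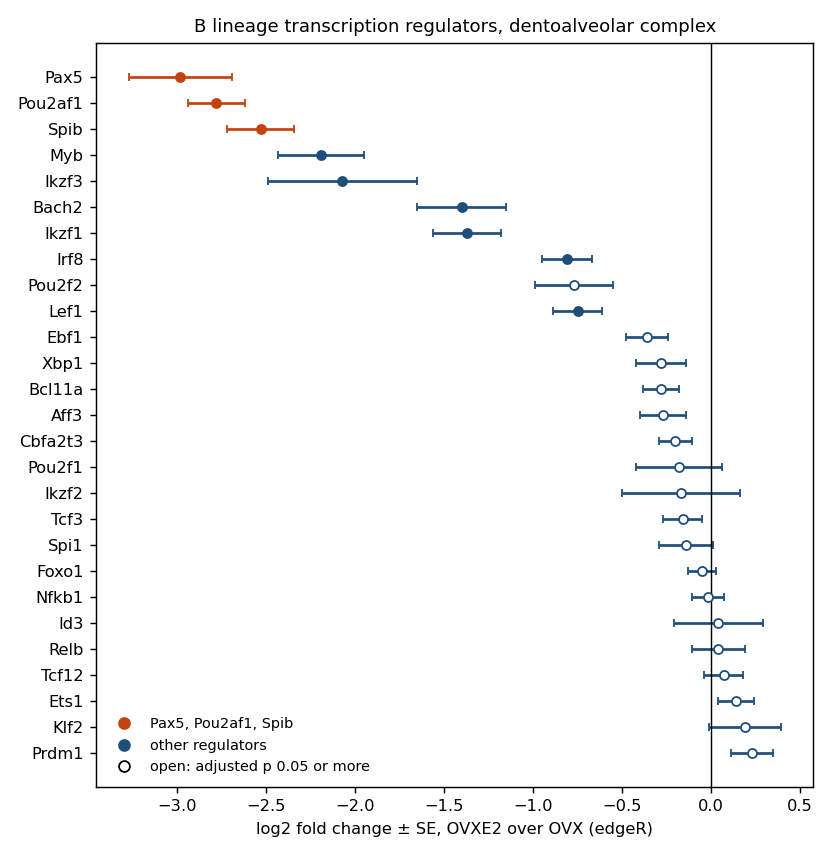
Log2 fold change with its standard error (horizontal axis) of OVXE2 over OVX in the DAC, for Pax5, Pou2af1 and Spib (red) and the 24 other B lineage transcription regulators (blue), ordered by value. Filled circles have an adjusted p under 0.05. Pax5, Pou2af1 and Spib lie at the low end, followed by Myb at −2.19 and Ikzf3 at −2.07, while Ebf1 at −0.36 and Spi1 at −0.14 lie near 0.

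Of 14 genes that Pax5 is known to activate 12 were tested in the DAC. Between OVXE2 and OVX 8 of them fell and 4 did not pass, with a median of −1.39 over the 12. Of the 8, Ikzf3, Bach2, Irf8 and Lef1 were already counted in the list of regulators. Vpreb3, a protein of precursor B cells, had 2.44 ± 0.263 CPM in OVXE2 and 20.9 ± 4.57 CPM in OVX (−3.10 ± 0.18, adjusted p = 1.06e-05). Cd79a, a component of the B cell receptor, had 6.15 ± 0.841 CPM in OVXE2 and 40.2 ± 12.7 CPM in OVX (−2.71 ± 0.24, adjusted p = 0.000143). Of 5 tested genes that Pax5 is known to repress, 1 fell and none rose: Flt3, a receptor of early progenitors, at −1.05 ± 0.18 (adjusted p = 0.0104), with a median of −0.28 over the 5. Among 13 tested POU and ETS partners or paralogs none passed (median −0.22). The most abundant were Ets1, an ETS factor of lymphocytes, with 159 ± 26.1 CPM in OVXE2 and 144 ± 5.83 CPM in OVX libraries, and Spi1 with 106 ± 20.3 CPM in OVXE2 and 117 ± 19.9 CPM in OVX.

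Some of the listed markers of precursor B cells, and of other blood cells, moved with the regulators. Of 14 tested precursor markers 8 fell between OVXE2 and OVX (median −0.80), led by the recombinase genes Rag2 (−3.66 ± 0.32, adjusted p = 0.000142) and Rag1 (−3.48 ± 0.43, adjusted p = 0.00167). Vpreb3, Cd79a and Lef1, named above, are among the 8. The summed level of the list was 659 to 926 CPM in OVXE2 and 906 to 1160 CPM in OVX libraries of the DAC. In gingiva, where Rag2 had no counts, it was 1330 to 1490 CPM in OVXE2 and 1170 to 1400 CPM in OVX libraries. The list thus also holds genes that are not specific to precursor B cells. Between OVXE2 and Sham 7 of the 14 fell and 1 rose. Of 12 markers of mature B cells 4 fell (median −1.29), the largest being Fcrla (−2.73 ± 0.19, adjusted p = 2.35e-05) and Blk (−1.85 ± 0.28, adjusted p = 0.00576). Of 8 plasma cell markers 2 fell (median −0.23): Slamf7 (−1.50 ± 0.21, adjusted p = 0.00306) and Tnfrsf13b (−1.02 ± 0.13, adjusted p = 0.00198). The antibody joining chain Jchain had 42.5 ± 24.8 CPM in OVXE2 and 35.0 ± 18.1 CPM in OVX libraries (0.28 ± 0.47, adjusted p = 0.98). Of the 10 markers of plasmacytoid dendritic cells, which also use Spib, none passed (median −0.14), and their summed level was 119 to 211 CPM in OVXE2 and 126 to 161 CPM in OVX libraries. Siglech, a receptor of these cells, had 6.43 ± 0.768 CPM in OVXE2 and 5.57 ± 0.988 CPM in OVX, a small part of that sum. Whether the rest of the list is specific to these cells in this tissue was not tested. The sum and the median therefore do not measure the number of these cells. The joint list of microfold cell and nasal lymphoid tissue markers gave 0 calls of 6, and tuft cell markers 0 of 9. Levels in the tuft list ran from Sh2d6, at 0.378 CPM in OVXE2 and 0.388 CPM in OVX, to Dclk1, at 47.9 and 44.5 CPM. The lowest of the joint list was Ccl20, at 0.471 CPM in OVXE2 and 0.501 CPM in OVX. For such scarce genes a change could be missed.

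Outside the B lineage, 9 of 10 immature neutrophil markers fell in OVXE2 against OVX libraries (median −1.65), as did 3 of 15 markers of T and NK cells (median −1.13), 2 of 6 pan-leukocyte markers (median −0.63) and 1 of 7 markers of monocytes and macrophages (median −0.04). None of 7 mature neutrophil markers (median −0.32) and none of 10 erythroid markers (median −0.57) passed. The summed level of the pan-leukocyte markers was 752 to 960 CPM in OVXE2 and 1100 to 1330 CPM in OVX libraries. That of T and NK cell markers was 41.8 to 46.5 CPM in OVXE2 and 63.1 to 96.8 CPM in OVX. The part of these shifts in the values of Pax5, Pou2af1 and Spib was not tested.

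In gingiva the 3 genes were scarce and varied by library. Pax5 had 2.28, 0.201, 0.0821 and 0.119 CPM in OVXE2 libraries, 1.08, 0.159, 5.06 and 0.748 CPM in OVX libraries and 0.120, 0.121, 0.640 and 0.0771 CPM in Sham libraries. Pou2af1 had 3.56, 0.443, 0.205 and 0.159 CPM in OVXE2, 1.21, 0.318, 6.10 and 0.499 CPM in OVX and 0.319, 0.0804, 0.533 and 0.193 CPM in Sham. Spib had 2.94, 0.966, 1.11 and 0.756 CPM in OVXE2, 1.12, 1.01, 6.19 and 0.998 CPM in OVX and 0.439, 1.17, 0.800 and 0.655 CPM in Sham. OVX 3 and OVXE2 1 were the highest libraries of their groups for each gene, and the groups overlapped. In counts, OVX 3 held 112 for Pax5, 135 for Pou2af1 and 137 for Spib, and OVXE2 1 held 55, 86 and 71. In the other 10 libraries Pax5 had 2 to 25 counts, Pou2af1 2 to 28 and Spib 11 to 29.

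None of the 3 genes passed in any gingival comparison, where no gene of 12680 was called (0.0%) by edgeR. In the order OVXE2 against OVX, OVXE2 against Sham and OVX against Sham, 1766, 939 and 1530 genes had an unadjusted p under 0.05, and DESeq2 called 92, 8 and 44 genes. Pax5, Pou2af1 and Spib were not among them, and for OVX against Sham DESeq2 gave these 3 genes no adjusted p. Between OVX and Sham the log2 fold changes were 2.98 ± 1.26 for Pax5, 2.89 ± 1.22 for Pou2af1 and 1.61 ± 0.68 for Spib, with an adjusted p of 0.405, 0.405 and 0.406. Without OVX 3 they were 1.59, 1.32 and 0.45. Between OVXE2 and OVX they were −1.40 ± 1.08, −0.90 ± 1.04 and −0.69 ± 0.65, and without OVX 3 they were −0.02, 0.67 and 0.46, and without OVXE2 1 they were −3.67, −2.90 and −1.30. Between OVXE2 and Sham they were 1.57 ± 1.33, 1.99 ± 1.25 and 0.91 ± 0.69, with −0.69 for Pax5 and −0.01 for Pou2af1 once OVXE2 1 was left out.

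The libraries OVX 3 and OVXE2 1 of gingiva were also high in markers of mature B cells. The following markers were chosen after their values had been seen. The complement receptor Cr2 of mature and follicular B cells had 153 counts in OVX 3 and 64 in OVXE2 1, against 0 to 18 in the other 10 gingival libraries. Cd22, an inhibitory receptor of B cells, had 157 and 73 counts there, against 11 to 37. Jchain, of antibody-secreting cells, had 257 and 132 counts, against 2 to 121. The precursor gene Rag1 had 5 and 3 counts in these libraries and 1 to 7 in the others, and Rag2 had none in any gingival library. Vpreb3 had 7 and 13 counts, against 0 to 3. The T cell gene Cd3e had 85 and 57 counts, against 31 to 85. These gingival values are counts: 3 counts equal 0.141 CPM in OVX 3 and 0.123 CPM in OVXE2 1, before TMM scaling. In the DAC, Rag1 was higher, averaging 1.75 ± 0.923 CPM in OVXE2, 19.6 ± 7.04 CPM in OVX and 7.82 ± 2.39 CPM in Sham libraries.

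In gingiva, Pax5 and Pou2af1 again ran close to each other and to B cell genes, but Spib ran less close to them than in the DAC. Among the genes nearest to Pax5 over the 12 gingival libraries were Cd79a at a root mean square difference of 0.435, Pou2af1 at 0.487, Cd22 and Cr2, where the median of 12679 genes was 1.60. Among the nearest to Pou2af1 were Pax5, Cd22 at 0.505, Cd79b and Cd79a. Spib, whose counts were less uneven, was nearest to Siglecg at 0.444, Slamf6, Cd22, Rhoh and Cd79b. From Spib, Pou2af1 was at 0.919 (rank 5094) and Pax5 at 0.990 (rank 9981), on either side of the median gene at 0.93. From Pax5 and from Pou2af1, whose median distances were larger, Spib was at rank 11 and 10. The gingival libraries high in mature B cell markers held 112 and 55 counts of Pax5, against 2 to 25 in the others. How far the distances rest on these libraries was not tested.

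**Figure D5:**
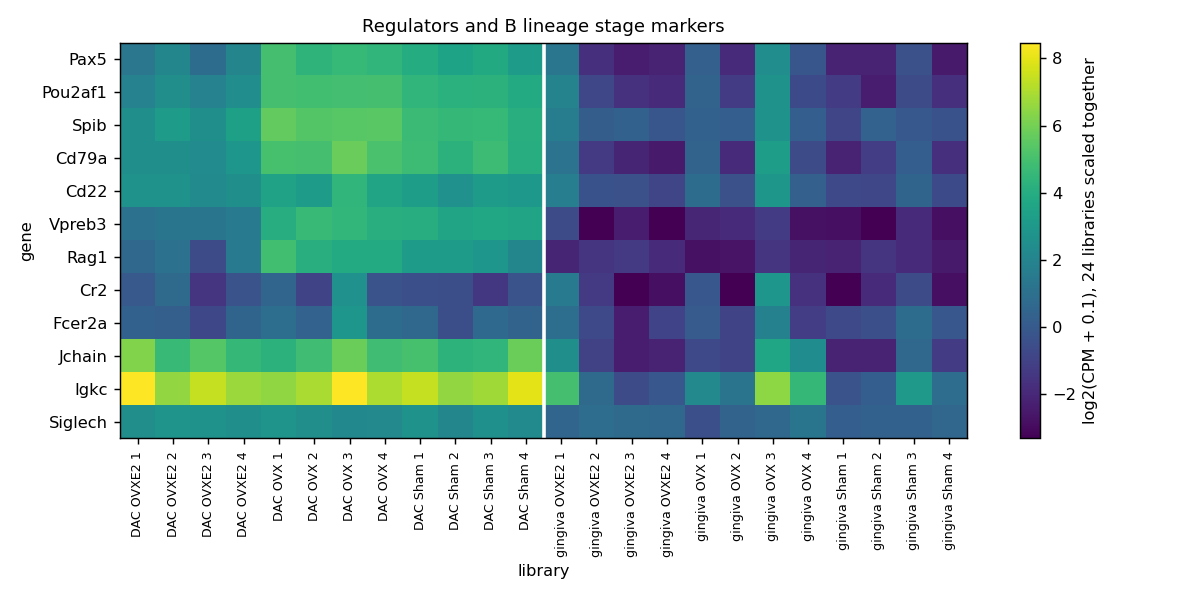
Heat map of log2(CPM + 0.1) with all 24 libraries scaled together, for Pax5, Pou2af1 and Spib and 9 markers (rows) in each library (columns, DAC on the left of the white line and gingiva on the right, each as OVXE2, OVX and Sham). Rag1 and Vpreb3 follow the regulators across the DAC groups, and in gingiva OVX 3 and OVXE2 1 are high for the regulators and for Cr2 with 153 and 64 counts, while Rag1 has 5 and 3 counts there.

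The regulators were higher in the DAC than in gingiva in each hormonal state, on a scale common to all 24 libraries. In OVXE2 mice the log2 difference was 2.15 ± 0.80 for Pax5 (adjusted p = 0.0218), 1.99 ± 0.74 for Pou2af1 (adjusted p = 0.0215) and 2.33 ± 0.49 for Spib (adjusted p = 0.000236). Pax5 and Pou2af1 overlapped between these tissues through gingival library OVXE2 1, and Spib did not (33.5% of genes were higher in the DAC without overlap). The calls of Pax5 and Pou2af1 were lost without OVXE2 2, 3 or 4 of gingiva (adjusted p of up to 0.0657), and without OVXE2 1 the differences were 4.42 for Pax5, 3.99 for Pou2af1 and 2.94 for Spib. In OVX mice the differences were 3.71 ± 0.77, 3.86 ± 0.74 and 4.15 ± 0.50 (adjusted p = 0.000222, 9.31e-05 and 1.93e-07) for Pax5, Pou2af1 and Spib, and 5.09, 5.42 and 5.31 without gingival library OVX 3. In Sham mice they were 5.74 ± 0.95, 6.00 ± 0.91 and 4.81 ± 0.54 (adjusted p = 1.45e-05, 4.66e-06 and 6.84e-08), and Pax5 was at 6.76 without gingival library Sham 3. All 3 genes were thus called in each state, where 72.1% of 14209 genes were called in OVXE2, 72.4% in OVX and 75.1% in Sham, and 38.0%, 38.1% and 39.7% were called higher in the DAC. In OVX and Sham mice the tissues did not overlap for any of the 3 genes, which was so for 34.8% and 36.6% of genes in that direction. For each gene the order of mean levels was DAC OVX, DAC Sham, DAC OVXE2, gingiva OVX, gingiva OVXE2 and gingiva Sham. The DAC groups did not overlap with one another, whereas DAC OVXE2 overlapped with gingiva OVX through library OVX 3, and the gingival groups overlapped.

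Whether the estradiol effect differed between the tissues was tested directly. The difference of the OVXE2 against OVX effect, DAC minus gingiva, was −1.56 ± 1.09 for Pax5, −1.87 ± 1.02 for Pou2af1 and −1.82 ± 0.67 for Spib (adjusted p = 0.71, 0.608 and 0.45), where 0.19% of 14209 genes were called. Without gingival library OVX 3 the Spib difference was −2.98 with an adjusted p of 0.011. Without gingival library OVXE2 1 the differences were 0.71 for Pax5 and 0.13 for Pou2af1. For OVXE2 against Sham the differences were −3.60 ± 1.26, −4.01 ± 1.17 and −2.48 ± 0.71 (adjusted p = 0.528, 0.336 and 0.311; 0.0633% of genes called), and that of Spib passed without OVX 3 (−2.48, adjusted p = 0.0435). For OVX against Sham they were −2.04 ± 1.20, −2.14 ± 1.14 and −0.66 ± 0.69 (adjusted p = 0.589, 0.575 and 0.723; 0.0% called by edgeR, with 1212 genes at an unadjusted p under 0.05 and 0 called by DESeq2), with 0.50 for Spib without OVX 3. Among other regulators, Myb (−2.13 ± 0.31, adjusted p = 0.00312) and Bach2 (−1.78 ± 0.33, adjusted p = 0.0198) passed this test for OVXE2 against OVX, 2 of 24.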

How the data were processed

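RNA of gingiva and DAC was sequenced as paired-end poly(A) libraries, per the labels' protocols. Per the submitters' processing notes, fastp, STAR, GRCm38 (mm10) and DESeq2 were used; no version or annotation is named there. The authors deposited raw counts for each gene and library. Column 4, the opposite-strand counts, was used, since 3.38 to 9.03% of strand-assigned counts lay on the other strand. Lines of reads assigned to no gene stayed out: multimapping reads were 6.40 to 13.5% and reads on no feature 19.8 to 32.2%. GENCODE M21 named 38186 IDs.

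The members and the 21 gene lists were chosen with earlier results of these data known. Counts were filtered (filterByExpr, minimum count 10), TMM-scaled and fitted with edgeR 4.0.16 in R 4.3.3 (glmQLFit, robust; glmQLFTest). Each tissue's 12 libraries entered 1 fit with 9 residual degrees of freedom (13617 genes in the DAC, 12680 in gingiva), and all 24 entered the fit that compares tissues (18 degrees of freedom, 14209 genes). The 3 genes passed the filter in each of these fits. Calls are at a Benjamini-Hochberg adjusted p under 0.05. A standard error is the log2 fold change over the square root of F. CPM are scaled within a tissue except between tissues. Log2 CPM used a prior count of 2. Ratios were tested by exact permutation in SciPy 1.17.1.

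Of the other regulators up to 6 called and 2 uncalled genes were named, plus Ebf1, Pou2f2, Spi1, Bach2 and Prdm1, and of other lists mostly 2 genes. Likeness gave up to 5 of the nearest genes. A gene that these rules would name is not reported here. Jchain, Siglech, Rag1 in gingiva and the other gingival markers were named after their values were seen. Where replicates share an origin, p-values measure only the spread between these libraries. The test was tried on simulated counts. DESeq2 1.42.0, another normalization, other filters and strands, a replicate block and left-out libraries were alternatives.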

Additional observations from a re-analysis of the deposited data

Results flagged for a closer look

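In 18 sets of 4 libraries (3 genes, 6 groups), 6 had a highest value farther from the rest than the critical value of Dixon's test allows; chance flags about 1 in 20. All 6 were in gingiva, and the sets share libraries. In OVXE2 1 this held for Pax5 at 2.28 CPM, Pou2af1 at 3.56 CPM and Spib at 2.94 CPM. In OVX 3 it held for Pou2af1 at 6.10 CPM and Spib at 6.19 CPM. In Sham 3 it held for Pax5 at 0.640 CPM, which rests on 12 counts.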

How the results depend on the processing

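In the DAC, Pax5, Pou2af1 and Spib kept their calls in both OVXE2 comparisons without each library in turn and under each other alternative, except Pax5 for OVXE2 against Sham among libraries of higher other-strand share (−2.34, adjusted p = 0.0529). Of 949 alternative values of tests, 921 kept direction and side of the threshold, 13 lost a call, 4 gained one and 11 changed sign. The 949 include fits that leave out a library of a group outside the comparison. Uncalled results that stayed uncalled in the same direction count among the 921, so this count is no measure of how firm the calls are. DESeq2 called Pou2af1 (0.74) and Spib (0.92) for OVX against Sham in the DAC. For the DAC against gingiva in OVXE2 mice the calls were lost without a filter on low counts (Pax5 2.08, Pou2af1 1.93), with only the groups compared (2.16 and 2.01) and without the 4 DAC libraries of most brain neuron counts (1.98 and 1.89). The libraries of higher other-strand share do not include OVXE2 1 of gingiva. They reversed Pax5 (−0.06) and Pou2af1 (−0.11) for OVXE2 against Sham in gingiva. They also reversed the tissue difference of OVXE2 against OVX for Pax5 (1.3) and Pou2af1 (0.92). Without OVXE2 1 alone, Pax5 and Pou2af1 were at −0.69 and −0.01 for OVXE2 against Sham. Their tissue differences were then 0.71 and 0.13. The cause was not tested. DESeq2 gave no adjusted p for the 3 genes in gingiva for OVX against Sham, so that comparison has no DESeq2 value, and Pax5 and Pou2af1 did not pass the filter for OVXE2 against Sham in gingiva with only the groups compared.

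Without each library in turn, values ran as follows. In gingiva, OVXE2 against OVX gave −2.90 to 0.67 for Pou2af1 and −1.30 to 0.46 for Spib, and OVXE2 against Sham gave −0.69 to 2.61 for Pax5 and −0.01 to 2.44 for Pou2af1. The DAC against gingiva in OVXE2 mice gave 1.78 to 4.42 for Pax5 and 1.62 to 3.99 for Pou2af1. The tissue difference of OVXE2 against OVX gave −2.94 to 0.71 for Pax5, −3.43 to 0.13 for Pou2af1 and −2.98 to −1.21 for Spib. That of OVX against Sham gave −3.06 to −0.66 for Pax5, −2.58 to −0.58 for Pou2af1 and −0.95 to 0.50 for Spib, and that of OVXE2 against Sham −4.61 to −1.33, −4.44 to −2.01 and −2.77 to −1.87 in the same gene order.

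For same-numbered libraries, correlations of their deviations from group means were −0.55 to 0.31 over 36 pairs, with 11 over 0.1. With 4 libraries per group, these values cannot settle whether such libraries share a mouse or another origin. A replicate block gave −2.97 for Pax5, −2.79 for Pou2af1 and −2.53 for Spib in the DAC for OVXE2 against OVX and changed no call of the 3 genes, with 250 genes called against 290 without it. DESeq2 called 598 genes there, the fit of only the groups compared 189, the one without the 4 DAC libraries of most brain neuron counts 122, and libraries of higher other-strand share 39. For OVXE2 against Sham these were 340, 64, 37 and 16, against 143. For the tissue difference of OVXE2 against OVX 27 genes were called, against 108 by DESeq2, 9 with a replicate block and 2 in libraries of higher other-strand share; for OVXE2 against Sham these were 9, 64, 1 and 0 (712 genes at an unadjusted p under 0.05).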
